A study of Homo sapiens with 6 samples.

Results

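The 10 genes for nonreceptor protein tyrosine phosphatases examined here by RNA pol II occupancy in HepG2 cells were PTPN1, PTPN2, PTPN3, PTPN6, PTPN9, PTPN11, PTPN12, PTPN13, PTPN14 and PTPN23. They were taken by gene symbol from the 4 annotated region lists, so a region counted for a gene when the deposited annotation named that gene for it. Of these 10 genes, 9 had at least 1 region, out of 16428 genes with a region in any list. HepG2 is a human liver tumor cell line with many traits of hepatocytes. The SHP-1 KO (knockout) cells carried a CRISPR disruption of PTPN6, the gene for SHP-1, and the SHP-1 WT cells were HepG2 cells without it. Knockout cultures were grown from single cells transfected with Cas9 and a guide, and a nontargeting guide was also used in the study. The paper describes making clonal lines both with and without the PTPN6 deletion. Whether the profiled WT cells were such a clone, or carried the nontargeting guide, was not given in the sources used here. ChIP-seq was done for RPB1, the largest subunit of RNA pol II, and for RPB1 phosphorylated at serine 2 of its C-terminal repeats (pSer2), with 1 library for each antibody and genotype. Thus no value below has a replicate check, and the difference between genotypes cannot be told apart from the difference between clones or between libraries.

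Tyrosine phosphatases of the nonreceptor type remove phosphate from tyrosine residues inside the cell, and the domains beside the catalytic domain set where each one works. SHP-1 and SHP-2 dock on phosphotyrosine through SH2 domains, PTPN1 and PTPN2 restrain insulin receptor and cytokine signaling, and PTPN3, PTPN13 and PTPN14 carry FERM domains that bind at the membrane and cytoskeleton. RNA pol II gathers at active gene starts, and pSer2 accumulates as the polymerase elongates toward the gene end. In liver, SHP-1 and PTPN1 are known as brakes on insulin signaling.

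The value compared is the enrichment of a called region over input, as a fold, taken at its summit. It is a local value at 1 position, not summed over a gene. The percentile given with it is the share of regions in the same list with an equal or lower value. The list held 46045 RPB1 regions in WT and 41605 in knockout cells, and 102674 and 81012 pSer2 regions. Read counts were not given, so the depth behind each region is unknown and no counting error could be set. Cell identity was checked by marker genes. Regions were assigned to 8 of 8 hepatocyte markers for RPB1 in WT cells, to 7 in knockout cells, where APOA1 had none, and to 8 in both pSer2 lists. Their strongest RPB1 values in WT ran from 4.02, at APOA1, to 82.1, with a median of 29.9. Of all protein-coding genes, 57.6% had an assigned RPB1 region in WT, so having a region does not by itself mark a cell type. Of the blood cell markers reported here, CD14 had a weak RPB1 region in WT cells (4.70), though a stronger one than APOA1, and PTPRC, CD3E and SPI1 had none in any list.

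PTPN6, which encodes SHP-1, was among the more weakly occupied members. The gene spans 14849 bp of chromosome 12 in hg38, from 6946468 to 6961316, and is read on the forward strand. Its strongest RPB1 region had a fold enrichment of 24.0 in WT and 17.2 in knockout cells, the eighth place among 9 members in both lists. Its single pSer2 region had a fold enrichment of 4.03 in WT and 5.24 in knockout cells, the ninth and the seventh place. By fold enrichment, RPB1 was thus lower and pSer2 higher at this gene in the knockout library, neither past 1.5-fold. By covered length the pSer2 direction turned. RPB1 regions assigned to PTPN6 covered 1899 bp in WT and 1239 bp in the knockout, a ratio of 0.652 and so past 1.5-fold. The pSer2 region covered 569 bp and 463 bp, a ratio of 0.814. The median ratio of covered length over all genes in both lists was 0.860 for RPB1 and 0.800 for pSer2. For pSer2, 51.6% of genes had a lower ratio than PTPN6, near the middle. The share of genes past 1.5-fold by covered length was not determined. RNA pol II occupancy does not measure SHP-1 protein, so these values do not check the knockout. In cell populations, fewer cells with polymerase at a start and less polymerase per cell cannot be told apart.

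PTPN6 has alternative promoters, an upstream one known from epithelial cells and a downstream one known from blood cells. The start of the downstream one, at 6951356, lies 4888 bp after the start of the gene. In all 4 lists the occupied place was the upstream start. The RPB1 region there ran from 6945772 to 6947136 in WT and from 6945954 to 6947192 in knockout cells, with 1183 bp shared. The pSer2 region ran from 6946278 to 6946846 in WT and from 6946343 to 6946805 in knockout cells, inside the RPB1 region in both. No list had a region over the downstream start, and the nearest one was 3341 bp away for RPB1 in WT, 4164 bp for RPB1 in the knockout, and 4510 and 4551 bp for pSer2. The sequences before the starts are shown as those of an occupied and an unoccupied start of 1 gene. Whether sequence accounts for this difference was not tested. The sequences were taken from the RefSeq promoter windows (GRCh38.p14), 5′ to 3′, cut back so that they end before the first annotated exon. Capitals mark GC boxes (GGGCGG on either strand) and CCAAT boxes (CCAAT on either strand). The full windows held 2 GC boxes upstream and 1 downstream, all in the part cut away. Of the 2 CCAAT boxes in the upstream window, 1 is shown. The printed stretches therefore do not give the motif content of either window.
PTPN6 upstream, chr12:6946327-6946467, forward strand: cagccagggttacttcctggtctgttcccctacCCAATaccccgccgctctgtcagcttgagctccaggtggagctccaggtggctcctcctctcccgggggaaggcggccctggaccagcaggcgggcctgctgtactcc
PTPN6 downstream, chr12:6951106-6951261, forward strand: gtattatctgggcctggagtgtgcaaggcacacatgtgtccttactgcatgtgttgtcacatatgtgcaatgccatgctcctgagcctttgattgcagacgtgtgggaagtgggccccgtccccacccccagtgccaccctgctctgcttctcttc

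WT cells had 2 more RPB1 regions assigned to PTPN6. One lay 1369 bp into the gene, from 6947682 to 6948015. It reached a fold enrichment of 4.83, with 4.80 as the −log10 of its q-value. The other lay at the gene end, from 6961261 to 6961460. It reached 4.01, with 3.14 as the −log10 of its q-value. Knockout cells had neither, so the number of RPB1 regions was 3 in WT and 1 in knockout cells. They stood at the 35.8 and the 17.9 percentile of the WT list. Of 1615 genes with 3 RPB1 regions in WT, 25.4% had at most 1 in knockout cells.

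The guides used on the cells do not overlap any of these regions. They are shown because they place the targeted sequence relative to the polymerase regions. Each line gives the genomic site in the guide's direction, with the PAM in capitals.
Guide 1, chr12:6956188-6956207, reverse strand: cattgatgtagtcggacccgGGG
Guide 4, chr12:6957663-6957682, forward strand: gtcccatactggcccgaggtGGG
The sites lie in coding exon 8 and coding exon 10 of the 16 exons of the main transcript (GENCODE release 44). Guide 1 was 5054 bp from the nearest WT RPB1 region and 7852 bp from the nearest WT pSer2 region. Guide 4 was 3579 bp and 6377 bp away. Which guide gave the profiled clone was not given in the sources used here. The relatives were searched over the whole gene and 5 kb on each side for sites beside an NGG PAM. The closest site in the other 9 genes had 7 to 8 mismatches to guide 1 and 6 to 7 mismatches to guide 4. For the nontargeting guide, the closest site in those genes had 6 to 8 mismatches, and the closest in PTPN6 had 8.

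**Figure D1:**
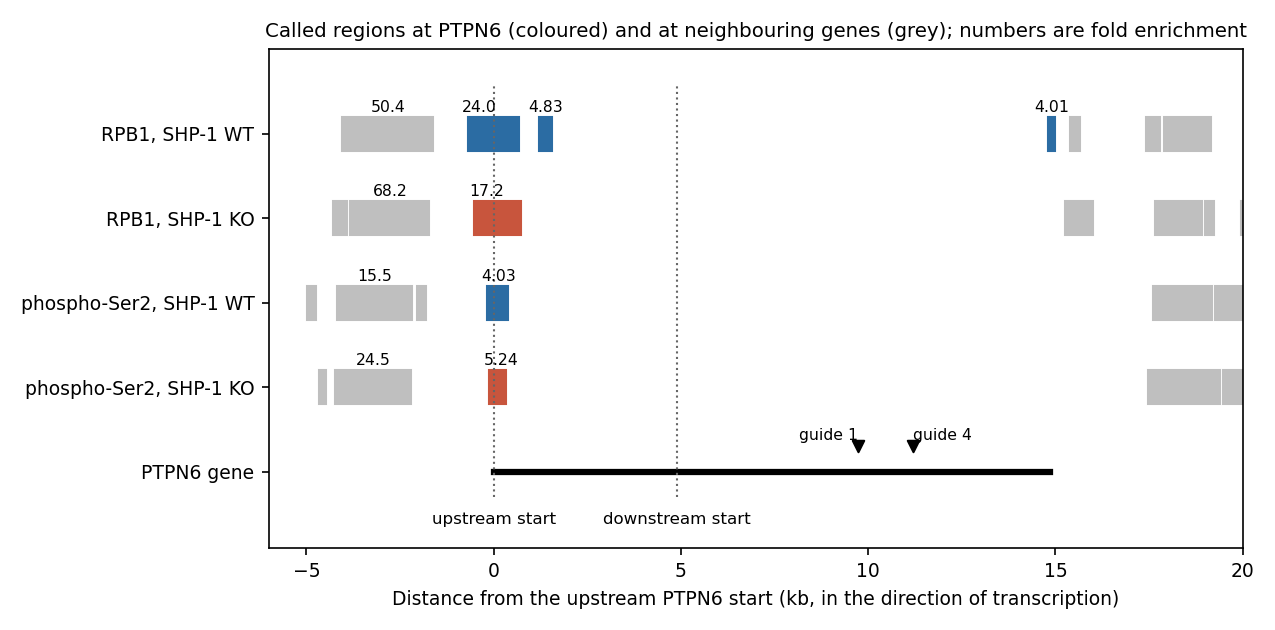
Called regions around PTPN6 in the 4 lists, with distance from the upstream start in kb on the x axis and 1 list per row. Coloured boxes are regions assigned to PTPN6 and grey boxes are regions assigned to neighbouring genes. The numbers are fold enrichment over input, and triangles mark the guide sites. Every list has a coloured box at the upstream start (24.0 and 17.2 for RPB1, 4.03 and 5.24 for pSer2) and none at the downstream start.

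The region just upstream of PTPN6 had the opposite RPB1 difference. It was assigned to RNU7-1, which encodes the U7 small nuclear RNA of histone pre-mRNA processing, and was named after its values were seen. The start of the coding gene C12orf57, at 6942978, also lies within it in all 4 lists, so the signal of these starts cannot be told apart. The RPB1 region reached a fold enrichment of 50.4 in WT and 68.2 in knockout cells, and the pSer2 region 15.5 and 24.5. The RPB1 region ended 1617 bp before the PTPN6 start in WT and 1722 bp before it in knockout cells. Any count that takes regions by position from 3 kb upstream therefore gives these values to PTPN6.

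PTPN11 encodes SHP-2, the closest relative of SHP-1, which promotes signaling through the RAS and ERK pathway. It was more strongly occupied than PTPN6 for RPB1 in both genotypes. Its single RPB1 region covered the start on chromosome 12 from 112418265 to 112419644, with a fold enrichment of 43.3 in WT and 33.3 in knockout cells. RPL6, a ribosomal protein gene, starts 487 bp from PTPN11 on the other strand and within the same region, so the signal of these starts cannot be told apart. The pSer2 region at the start had a fold enrichment of 4.31 in WT and 5.09 in knockout cells. The strongest pSer2 regions of PTPN11 lay past the gene end, where 5 regions in WT and 4 in knockout cells were found between 597 bp and 3812 bp beyond it. They reached a fold enrichment of 5.08 in WT and 5.77 in knockout cells, at sites 864 bp apart. At the PTPN11 start, as at that of PTPN6, RPB1 was lower and pSer2 higher in the knockout library, again within 1.5-fold.

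PTPN1 encodes PTP1B, which removes phosphate from the activated insulin receptor, and PTPN2 encodes its close relative, which acts on JAK kinases and STAT proteins. The RPB1 region at the PTPN1 start, on chromosome 20 from 50509832 to 50510974, had a fold enrichment of 43.7 in WT and 24.9 in knockout cells. The pSer2 region at the same start had a fold enrichment of 4.38 in WT and 2.75 in knockout cells. By strongest region, PTPN1 had the lowest SHP-1 KO to WT ratio of the 9 members for both antibodies, 0.568 for RPB1 and 0.629 for pSer2. In the pSer2 list its percentile was 72.8 in WT and 9.38 in knockout cells. PTPN1 also had RPB1 regions far upstream, 4 in WT and 3 in knockout cells, between 26670 bp and 86953 bp before the gene. The strongest of these reached 9.14 in WT and 6.37 in knockout cells, at different sites. The sequence before the PTPN1 start is shown as that of a strongly occupied member.
PTPN1, chr20:50510133-50510320, forward strand: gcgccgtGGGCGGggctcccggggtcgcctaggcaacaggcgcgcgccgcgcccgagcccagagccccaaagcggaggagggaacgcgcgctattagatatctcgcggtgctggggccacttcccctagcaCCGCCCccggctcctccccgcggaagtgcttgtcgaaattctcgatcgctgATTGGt

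PTPN2 had the strongest RPB1 region of all members in both genotypes. On chromosome 18 from 12882854 to 12884797, its fold enrichment was 72.9 in WT and 53.7 in knockout cells, at the 99.3 and the 98.9 percentile. The pSer2 region at this start had a fold enrichment of 7.85 in WT and 6.60 in knockout cells. PTPN2 had 12 pSer2 regions in WT and 10 in knockout cells. Of these, 10 in WT and 9 in knockout cells lay within 10 kb of the occupied start, on both sides of it. The strongest WT pSer2 region was an intronic one of 8.11, with its summit 2521 bp upstream of the nearest annotated start.

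PTPN12 encodes PTP-PEST, which acts on focal adhesion proteins. It stood apart from the other members by the number of its pSer2 regions, 50 in WT and 64 in knockout cells. Of these, 11 in WT and 19 in knockout cells had their summit past the gene end, up to 21983 and 25872 bp beyond it. Some of those past the end were annotated as exon or intron, at 18007 and 21983 bp in WT and 17792 and 25872 bp in knockout cells among others. The annotation thus placed them inside a transcript. Whether it belongs to PTPN12 was not determined, so the source of polymerase there cannot be told apart. As many or more regions were found at 166 of 12740 genes in WT and at 68 of 11433 genes in knockout cells, PTPN12 included. The median gene had 4 regions in both lists. The PTPN12 regions, those past the gene end included, covered 19373 bp in WT and 28333 bp in knockout cells, a ratio of 1.46. Of all genes in both lists, 91.4% had a lower ratio of covered length, and the median ratio was 0.800. Within the gene, pSer2 regions covered 12.4% of the distance from start to end in WT and 17.8% in knockout cells. In the first 25% of the gene the covered share was 8.32% in WT and 4.21% in knockout cells, and in the last 25% it was 23.2% and 29.0%. In the 10 kb past the gene end it was 30.6% and 54.4%. The regions at the start did not share this difference. The RPB1 region there, on chromosome 7 from 77534984 to 77539048, was the widest of the members at 4065 bp, with a fold enrichment of 35.8 in WT and 23.6 in knockout cells. The pSer2 region there had a fold enrichment of 7.26 in WT and 6.13 in knockout cells.

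Among the FERM domain members, PTPN13 had no region and PTPN3 and PTPN14 had some. PTPN13, which encodes a large scaffold phosphatase with PDZ domains, lies on chromosome 4 from 86594315 to 86815171. It had 0 regions in each of the 4 lists, and 0 regions of any assigned gene overlapped it. The nearest RPB1 region to its start was 297479 bp away in WT and 297783 bp away in knockout cells. As lists hold only called regions, this says that none was called at this depth, not that RNA pol II was absent. Its promoter window was rich in G and C (68.7%), the same share as in that of PTPN1. The sequence before its start is shown as that of the member with no called region.
PTPN13, chr4:86594115-86594314, forward strand: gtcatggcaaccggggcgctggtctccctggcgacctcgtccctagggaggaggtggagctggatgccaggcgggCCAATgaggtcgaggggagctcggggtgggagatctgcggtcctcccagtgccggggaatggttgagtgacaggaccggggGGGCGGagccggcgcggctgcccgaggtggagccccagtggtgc

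PTPN3 encodes a phosphatase with FERM and PDZ domains. The RPB1 region at its start, on chromosome 9 from 109497626 to 109498794, had a fold enrichment of 23.4 in WT and 14.5 in knockout cells. PALM2AKAP2 starts 12 bp away on the other strand, so the polymerase at these starts cannot be told apart. A further RPB1 region in intron 1 had a fold enrichment of 17.5 in WT and 15.2 in knockout cells and thereby became the strongest PTPN3 region in the knockout list. No pSer2 region was assigned to the start in either genotype. The intron 1 site had a pSer2 region of 5.73 in WT and 5.30 in knockout cells. At the gene end, the strongest pSer2 region was 6.44 in WT and 4.50 in knockout cells. The covered share of the 10 kb past the end was 23.0% and 8.44%.

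PTPN14 encodes a phosphatase that acts in Hippo signaling with the coactivator YAP. Its single RPB1 region, on chromosome 1 from 214551103 to 214552441, had a fold enrichment of 30.3 in WT and 19.3 in knockout cells. Like PTPN3, PTPN14 had no pSer2 region at its start. Its own pSer2 regions lay in the 3′ UTR, 2 in WT and 1 in knockout cells, with at most 4.57 and 3.86. Another 5 WT and 2 knockout regions inside the gene were assigned to SMYD2.

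PTPN9 and PTPN23 work on membranes, PTPN9 through a SEC14 lipid-binding domain and PTPN23 in endosomal sorting. The PTPN9 RPB1 region, on chromosome 15 from 75578242 to 75580052, had a fold enrichment of 25.7 in WT and 22.7 in knockout cells. Its ratio of 0.882 was the closest to 1 of the 9 members. The pSer2 region at the PTPN9 start, at 3.34, was found in WT only, whereas its strongest intronic region was 5.33 in WT and 6.20 in knockout cells, at different sites. The WT site had no knockout region, and the knockout site had 3.37 in WT. The PTPN23 RPB1 region, on chromosome 3 from 47378548 to 47381819, had a fold enrichment of 35.3 in WT and 27.2 in knockout cells. It also covers the start of the divergent transcript PTPN23-DT. PTPN23 had the strongest pSer2 region of the members, 9.67 in WT and 10.4 in knockout cells, at its 3′ end. pSer2 regions covered 73.9% of the last 25% of PTPN23 in WT and 69.6% in knockout cells. The neighbour SCAP ends 246 bp past the end of PTPN23 on the other strand, so the polymerase of these convergent genes cannot be told apart.

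**Figure D2:**
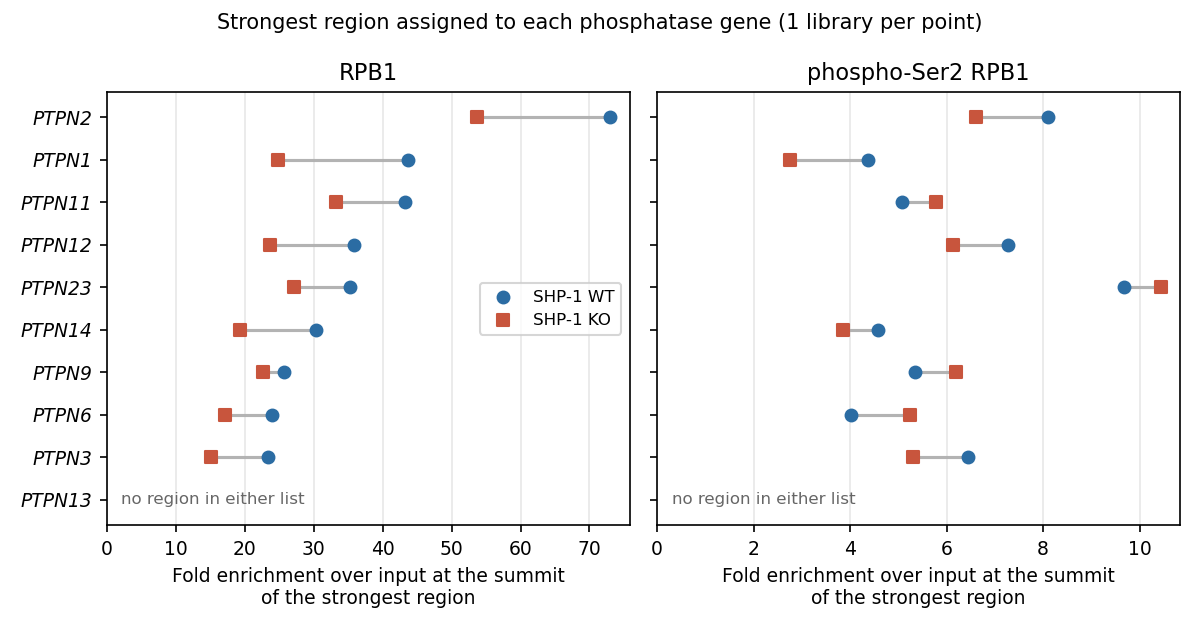
Fold enrichment at the summit of the strongest region assigned to each gene, for RPB1 (left) and pSer2 (right), with 1 point per library. Circles are SHP-1 WT, squares are SHP-1 KO, and genes are ordered by the WT RPB1 value. All 9 genes with RPB1 regions have the square left of the circle, whereas for pSer2 it is to the left for 5 genes and to the right for 4.

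The occupied start of a member was set by its strongest WT RPB1 promoter region, and the RPB1 list of knockout cells had a region overlapping it at 9 of 9 members. Of 20020 protein-coding genes of GENCODE release 44, 57.6% had an assigned RPB1 region in WT and 55.4% in knockout cells, and 51.8% and 47.2% had an assigned pSer2 region, where the members had 9 of 10 in each list. No occupied member lost all its regions in the knockout. Over all genes with a WT region, 9.09% had none in knockout cells for RPB1 and 14.7% for pSer2. Of the 27 WT RPB1 regions of the members, 13 were annotated as promoter, 5 as intron, 4 as 3′ UTR and 5 as distal. Of the 26 in knockout cells, 11 were promoter, 4 intron, 4 3′ UTR and 7 distal. Of 107 pSer2 regions in WT, 52 were intronic and 20 promoter, and of 103 in knockout cells 46 were intronic and 21 promoter. The totals were close, a SHP-1 KO to WT ratio of 0.963 for both antibodies, but PTPN12 held 50 of the 107 and 64 of the 103.

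The strongest RPB1 region was lower in knockout cells at 9 of 9 members, beside 82.1% of all genes with a region in both lists. Their median ratio was 0.718, beside 0.742 over the 12877 genes with an RPB1 region in both lists. At least 1.5-fold lower were 4 members, PTPN1 (0.568), PTPN14 (0.636), PTPN3 (0.649) and PTPN12 (0.659), beside 36.1% of all these genes. The PTPN3 value compares the start in WT with the intron 1 site in the knockout. At the start its ratio was 0.620 and at the intron 1 site 0.867. In the 8 others the strongest regions of both genotypes overlapped, and the share over all genes was not determined. PTPN12 was the member just past that fold and PTPN6 (0.718) the next one. None was at least 1.5-fold higher, beside 2.68% of all genes. The ratio of PTPN6 had 45.8% of genes below it, near the middle of the distribution. Divided by the median ratio of all genes, 0 of the 4 were past 1.5-fold.

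For pSer2 the strongest region was lower in knockout cells at 5 of 9 members, beside 59.7% of all genes with a region in both lists. The median ratio was 0.844, beside 0.936 over 10870 genes. PTPN1 was at least 1.5-fold lower, as were 11.7% of all genes, and none was 1.5-fold higher, beside 5.71% of all genes. PTPN6 had the highest ratio of the members, 1.30, with 87.5% of genes below it. PTPN9 (1.16), PTPN11 (1.14) and PTPN23 (1.08) were also above 1. At PTPN2, PTPN3, PTPN9 and PTPN11 the strongest pSer2 regions of the genotypes did not overlap, so these ratios compare different sites. How often this happens over all genes was not determined, so it cannot be read as a trait of these members. At the site strongest in knockout cells, the ratio was 1.84 for PTPN9, 1.51 for PTPN11, 0.925 for PTPN3 and 0.841 for PTPN2. At the site strongest in WT, it was 0.482 for PTPN2, 0.698 for PTPN3 and 0.842 for PTPN11. A site picked for its knockout value leans to a higher ratio, and one picked for its WT value to a lower one. PTPN6 stood at the 61.8 percentile of the pSer2 list in WT and at the 83.9 percentile in knockout cells, the largest gain of the 9 members.

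**Figure D3:**
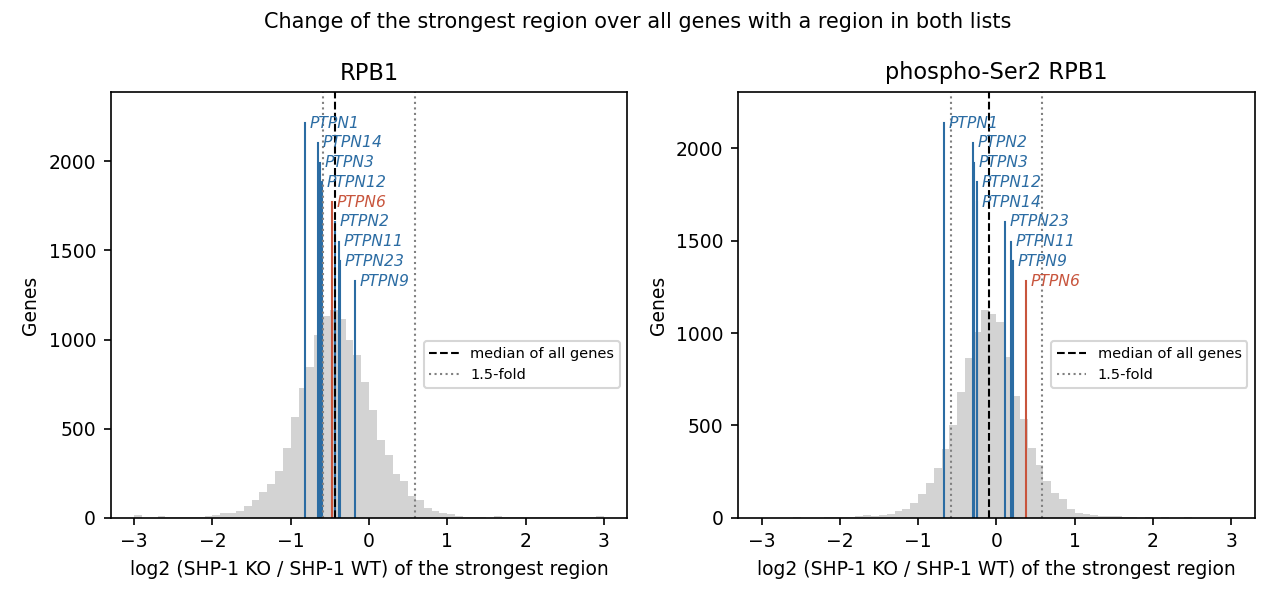
Distribution of the log2 ratio of SHP-1 KO to SHP-1 WT for the strongest region of each gene, over 12877 genes for RPB1 (left) and 10870 genes for pSer2 (right). The y axis is the number of genes, ratios beyond 3 on either side are in the end bins, and vertical lines mark the members with PTPN6 in red. The height of a line carries no value. The RPB1 lines gather around the dashed median of all genes, and the PTPN6 line is the rightmost of the pSer2 panel.

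The ratio of pSer2 to RPB1 was compared between genotypes, since the antibodies differ in their range. Where both had a region at the start, this ratio was higher in knockout cells at 6 of 6 members. It was 0.168 in WT and 0.304 in knockout cells at PTPN6, 0.0995 and 0.153 at PTPN11, 0.100 and 0.111 at PTPN1, 0.108 and 0.123 at PTPN2, 0.203 and 0.259 at PTPN12, and 0.174 and 0.235 at PTPN23. The same direction held for most genes. By strongest regions, the ratio was higher in knockout cells for 71.5% of 9237 genes with a region in all 4 lists, with a median of 1.24-fold. PTPN6 was 1.81-fold higher, with 85.0% of genes below it, and 7 of 9 members were above the median.

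Along the genes, the members differed in where pSer2 regions lay. At PTPN6 it was at the start alone. At PTPN3 and PTPN14 it was within or past the gene and not at the start. At PTPN12 it was spread over the gene, and at PTPN23 it filled the 3′ end. Past the gene end, regions were found within 10 kb at 9 of 10 members, the exception being PTPN13, which had no region at all. The share over all genes was not determined. These regions were assigned to other genes at PTPN1, PTPN2, PTPN6, PTPN9 and PTPN14, and in part to SCAP at PTPN23. Coding genes overlap the 10 kb window at PTPN1, PTPN6, PTPN9, PTPN13 and PTPN23, so the source of polymerase there cannot be told apart.

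**Figure D4:**
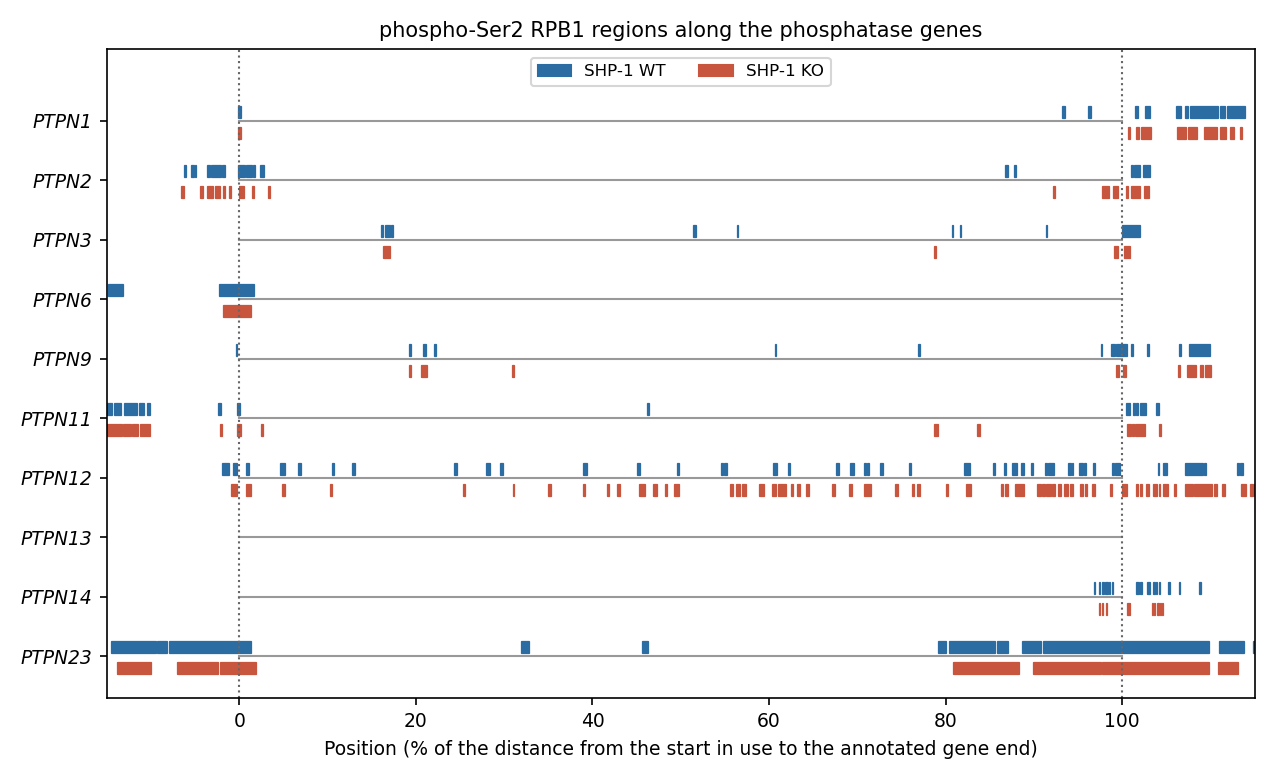
pSer2 regions of SHP-1 WT (blue) and SHP-1 KO (red) along each gene, whatever gene they were assigned to. The x axis is the position in percent of the distance from the occupied start to the annotated end, and PTPN13 is drawn from its annotated start. PTPN12 has regions along its whole length, PTPN23 at its start and most densely near its end, and PTPN13 has none. Within PTPN6 they are at its start alone, and a WT region before that start was assigned to C12orf57.

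The promoter windows of RefSeq, from 250 bases before to 50 after a start, were available for 9 members with 13 windows, all identical to hg38. PTPN11 had no window in the table. Of the 13 windows, 7 lay under a WT RPB1 region. These had a GC content of 64.0% to 78.0%, against 37.0% to 68.7% in the 6 others, and 58.7% as the median of 35116 windows. Their CpG ratio, the observed over the expected number, was 0.379 to 0.990, and 0 to 0.676 in the others. Of the 6 others, only that of PTPN13 came from a member with no RPB1 region. The rest came from PTPN2, PTPN6 and, for several of them, PTPN3, all with RPB1 regions elsewhere. The windows thus do not compare occupied with unoccupied members. The 1 window of PTPN2 lay 40593 bp from its nearest RPB1 region and not at its occupied start, so the most strongly occupied member set the lowest GC content of the others, which was 40.0% without it. PTPN6 had the lowest CpG ratio of the occupied windows, 0.379, the next being 0.798, and the median of all windows was 0.579. The GC box GGGCGG was found on either strand in 6 of the 7 and 2 of the 6 windows, and in 45.0% of all windows. CCAAT was in 2 and 1, and in 34.6% of all windows. TATAAA was in 0 and 1, and in 11.5% of all windows. The STAT motif TTCNNNGAA was in 0 of 13 windows and in 7.66% of all windows. Matches to different motifs did not overlap in these windows. These are matches of letters and do not show binding.

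Other tyrosine phosphatases were examined as background. Of 7 other nonreceptor genes, 3 had RPB1 regions in both genotypes. PTPN18 had 70.1 in WT and 45.7 in knockout cells, PTPN4 39.8 and 24.3, and PTPN21 26.9 and 31.2. PTPN5, PTPN7, PTPN20 and PTPN22 had no region in any list, and of these PTPN7 and PTPN22 are known from blood cells. Of 20 receptor type genes, 10 had RPB1 regions in both genotypes, with a median ratio of 0.815. Of these 10, 4 were at least 1.5-fold lower in knockout cells and none higher. Over all genes with an RPB1 region in both lists, 36.1% were lower and 2.68% higher by that fold. The strongest in WT were PTPRS (52.1 and 26.4 in knockout cells), PTPRK (49.3 and 40.0), PTPRA (49.0 and 66.5) and PTPRF (37.4 and 30.6). PTPRC, the blood cell phosphatase CD45, had no region.

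Of 10 genes for proteins on which SHP-1 or SHP-2 docks or that link them to receptors, 7 had RPB1 regions in both genotypes. Their median ratio was 0.669, beside 0.742 over all genes with a region in both lists. At least 1.5-fold lower were 3, beside 36.1% of all these genes. The adaptor GRB2 had 49.6 in WT and 25.7 in knockout cells, the adaptor FRS2 33.5 and 31.3, and the docking proteins GAB1 and GAB2 29.3 and 16.2, and 27.5 and 16.1. PECAM1 was slightly higher in knockout cells, 7.44 and 7.87. The inhibitory receptors SIRPA (10.3) and LAIR1 (4.22) had an RPB1 region in knockout cells only, and no gene of the list had one in WT only. Over all genes with a WT region, 9.09% had none in knockout cells. The share of genes with a region in knockout cells only was not determined. PECAM1, SIRPA and LAIR1 were named after their values were seen. For the pSer2 regions of these 10 genes, 6 were in both lists with a median ratio of 0.926.

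The genes most like PTPN6 were found by the percentile of the strongest region in the 4 lists, over 9236 other genes. NAAA was nearest, at a distance of 4.16 percentile points, with RPB1 of 22.3 in WT and 16.3 in knockout cells and pSer2 of 4.08 and 5.24. SLC39A6, at 4.23 points, had 24.0, 17.2, 4.06 and 4.95 in the same order. AARS2, at 4.46 points, had 25.0, 17.4, 4.08 and 5.05. Among the members the nearest was PTPN9, at 26.3 points, and the farthest was PTPN1, at 76.3 points.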

How the data were processed

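ChIP-seq libraries for RPB1 and pSer2 came from HepG2 cells that were SHP-1 WT or SHP-1 KO, 1 library per antibody and genotype. The 2 input libraries were not analysed here. The authors trimmed reads with Trimmomatic, aligned them to GRCh38/hg38 with BWA and ran MACS2 for narrow peaks on each library against the matching input. Versions are not given in the sources used here. The deposited lists hold a ratio, the fold enrichment of each summit over input, and the −log10 of the q-value. A table of the authors' own comparison for RPB1 (test results per region) was not used. Groups came from the labels.

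For each gene, the number of assigned regions, their summed length and the highest fold enrichment were taken from each list, and the SHP-1 KO to WT ratio was formed for genes with a region in both. With 1 library per group no test was possible. A ratio past 1.5-fold in either direction was counted for members and for all genes. Gene spans came from GENCODE release 44, promoter windows from RefSeq (GRCh38.p14). All 263 member regions lay within their hg38 chromosomes. The occupied start was the annotated start nearest to the summit of the strongest WT RPB1 promoter region. All 10 members are named, and of other lists at most the 4 genes strongest for RPB1 in WT. A gene of the blood cell marker list is not reported here. Members and lists were chosen with earlier results of these data known. Python 3.11.15, pandas 2.3.3 and NumPy 2.4.6 were used, and the functions were tested on simulated regions.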

Additional observations from a re-analysis of the deposited data

How the results depend on the processing

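The 14 results compared were counts of members with regions and past 1.5-fold, the ratios of region numbers, and the place of PTPN6. They gave 56 values under other settings, of which 44 stayed. To stay was to be within 1.5 times the count, within the 95% exact binomial interval of the ratio of region numbers, or at the same place. That interval treats regions as independent and measures no spread between libraries. It was wide, 0.540 to 1.71 for RPB1 and 0.727 to 1.27 for pSer2, so staying within it is a weak check. The number of members lower for RPB1 was 4, and 0 with a fold of 2 or after division by the median ratio of all genes. For pSer2 it was 1 member, 0 with a fold of 2, 0 after that division and 2 by covered length. By covered length, 3 members, PTPN1, PTPN2 and PTPN6, were lower for RPB1, of which 1 was among the 4. The PTPN6 ratio was then 0.652 for RPB1 and 0.814 for pSer2, below 1 in place of 1.30. The median ratio of covered length over all genes in both lists was 0.860 for RPB1 and 0.800 for pSer2. The share of all genes past 1.5-fold by covered length was not determined. With regions taken by position from 3 kb upstream to the gene end, 1 member, PTPN6, was higher for pSer2 (1.58), in place of 0, and its RPB1 ratio was 1.35 in place of 0.718, since the RNU7-1 region then counted for it. By position PTPN6 took place 2 for RPB1 in WT, 1 for RPB1 in SHP-1 KO and 1 for pSer2 in both genotypes. By covered length it took place 6 for RPB1 in WT and 7 for pSer2 in WT. Use of promoter regions alone for the counts past 1.5-fold was chosen after seeing the data and gave the same counts. No paired analysis was possible because each group had 1 library. Read depth is unknown, so no counting error could be set for a fold enrichment, and no result has a replicate.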
